A study of Homo sapiens with 6 samples.

Results

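The genes examined, 10 in number, belong to bone morphogenetic protein (BMP) signalling and the ID family, and were measured in OVCAR8, a line of human ovarian carcinoma cells, with and without leptin. They were chosen by name: the ligand genes BMP2 and BMP4, the secreted antagonist gene GREM1, the receptor genes BMPR1A and BMPR2, the inhibitory SMAD gene SMAD6, and ID1, ID2, ID3 and ID4. All 10 were found among the 62700 genes of the deposited tables, and 9 had enough counts to be tested. RNA sequencing gave 3 Leptin libraries, from cells treated with leptin at 100 ng/ml for 24 h, and 3 Control libraries, from cells treated with PBS. The labels give every library the genotype WT and describe overnight serum starvation before treatment. The comparison addresses how leptin, a hormone of fat tissue, changes the transcriptome of these cells. All libraries come from 1 cell line, and the labels do not say whether replicates were separate cultures. A p-value here therefore weighs only library-to-library spread, part of which may be technical.

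BMPs are secreted dimers that bring together type I and type II receptor kinases. The activated type I receptor phosphorylates SMAD1, SMAD5 and SMAD9, which enter the nucleus with SMAD4, and the ID genes are among their best-known direct targets. ID proteins are helix-loop-helix proteins without a DNA-binding region; they hold E proteins in inactive pairs and are linked to the maintenance of undifferentiated and proliferating cells. In the ovary, BMPs act on the surface epithelium and on follicle cells, and several BMP genes are expressed in ovarian carcinoma.

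Library totals lay between 15609425 and 18577775 counts. Of the Leptin libraries, replicate 1 differed from the others. Its score on the leading principal component (49.6% of variance) was -2.15, beside 46.3 and 39.6 for Leptin replicates 2 and 3 and a Control range between -31.0 and -23.6. The results below that rest on this library are therefore given with and without it. The epithelial and ovarian carcinoma markers KRT8 and PAX8 were abundant, PAX8 at 364 ± 5.48 CPM (counts scaled to library size; mean ± SD, n = 3) in Leptin libraries and 364.5 ± 8.84 CPM in Control libraries (n = 3), while MUC16 did not exceed 0.373 CPM in any library. Of the same list KRT7, KRT18 and KRT19 were also well expressed, while WT1, EPCAM, CDH1 and MSLN were low like MUC16. WT1, EPCAM, CDH1 and MSLN averaged 2.98, 5.48, 0.731 and 0.397 CPM in Leptin libraries. In Control libraries they averaged 2.39, 3.98, 0.247 and 0.320 CPM. Of 8 immune markers 3, PTPRC among them, had no count in any library. Of the 8, CSF1R alone passed the filter on low counts, with 80, 57 and 42 counts in Leptin replicates 1, 2 and 3. In Control replicates 1, 2 and 3 it had 30, 39 and 39 counts (log2 fold change 0.79 ± 0.31). Of 7 endothelial markers 1, KDR, passed the filter, with 37, 25 and 32 counts in Leptin replicates 1, 2 and 3. In Control replicates 1, 2 and 3 it had 50, 62 and 48 counts (log2 fold change -0.71 ± 0.28). Both had an unadjusted p under 0.05 in edgeR's test, but neither was called by edgeR, DESeq2 or limma-voom. The summed level of 9 fibroblast markers was 153 to 236 TPM (scaled to gene length and library size) in Leptin libraries and 211 to 299.5 TPM in Control libraries, and 0 of them changed by edgeR's test, DESeq2 or limma-voom (4 of 7 tested had an unadjusted p under 0.05, as had 27.6% of all tested genes). The share of all genes called was 9.81% by edgeR, 6.5% by DESeq2 and 8.39% by limma-voom. Most of the fibroblast sum was COL1A1, at 227, 182 and 149 TPM in Leptin replicates 1, 2 and 3. In Control replicates 1, 2 and 3 COL1A1 was at 204, 292 and 271 TPM. No other fibroblast marker averaged above 3.07 TPM in either group (LUM in Control libraries). Of the epithelial markers, KRT19 alone changed and was lower with leptin (log2 fold change -1.40 ± 0.11, edgeR adjusted p = 0.000139). In RNA from whole cultures, fewer cells of a type and less RNA per cell cannot be told apart.

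None of the 9 tested genes changed between the groups in edgeR's quasi-likelihood test at an adjusted p under 0.05, where 9.81% of all 15685 tested genes did (5.71% higher, 4.09% lower with leptin). With limma-voom 0 of the 9 were also called, where 8.39% of those tested were. DESeq2 called 0 of 10, GREM1 included, where it called 6.5% of 32825 genes. That total was not cut by the filter on low counts used for edgeR, so its share is not directly comparable. BMP2 alone (1 of 9) had an unadjusted p under 0.05 in edgeR's test, where 27.6% of all tested genes had one. The log2 fold changes of the 9 were positive for 5 and negative for 4, with a median of 0.12, beside 0.01 over all tested genes. BMP2 was also the only one of the 9 whose Leptin libraries all lay on one side of the Control libraries, which held for 32.2% of all tested genes. The widest spread was in ID1 and ID3: Leptin replicate 1 stood at the Control level and Leptin replicates 2 and 3 far below it. Without Leptin replicate 1, 2 of the 9 were called, both lower, where 29.6% of all genes were called. In the other analyses with 1 library left out, 0 of the 9 were called. The share of all genes called there was 4.84% and 1.66% without Leptin replicates 2 and 3, and 0.711%, 2.25% and 1.05% without Control replicates 1, 2 and 3. The count was also 0 of 9 with RLE and upper-quartile scaling (9.84% and 9.74% of all genes called) and with a stricter filter on low counts (10.7%). With replicate numbers as a block (8.31%), after subtraction of the GC trend (5.53%), and at the stricter adjusted p of 0.01 (1.75%) it was 0 of 9 too. With no filter on low counts it was 0 of 10, GREM1 included (7.42%).

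**Figure D1:**
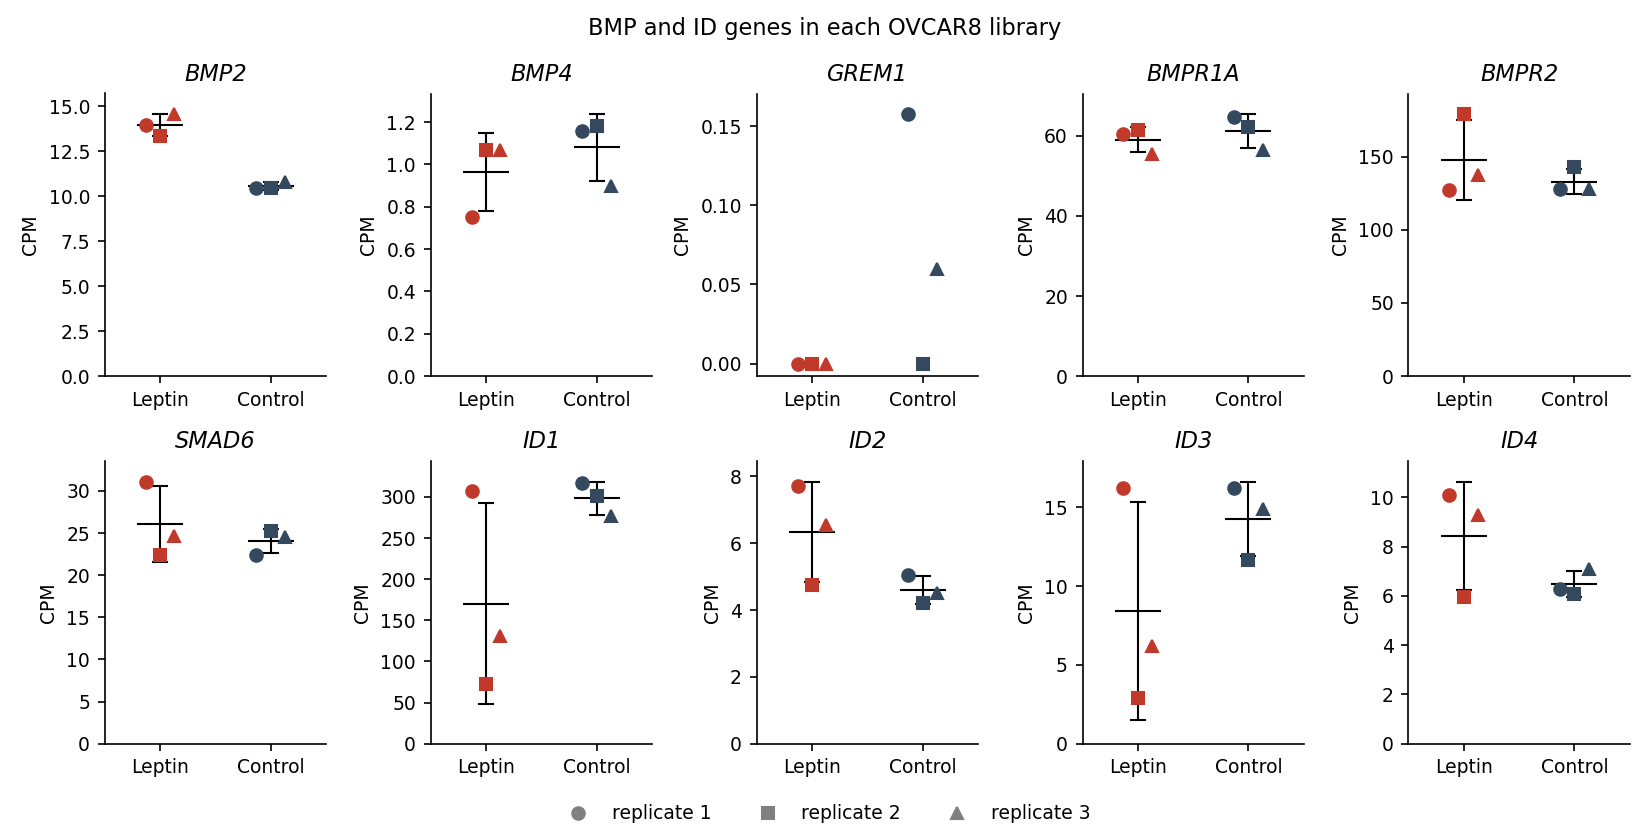
Level of each gene in CPM (linear axes, GREM1 shown without a mean) in the 3 Leptin and 3 Control libraries; symbols are replicates, horizontal bars the mean and error bars the SD. The BMP2 groups do not overlap, and ID1 and ID3 have 1 Leptin library at the Control level and 2 below it.

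Among the ligand genes, BMP2 (ENSG00000125845.7, hg38 chr20:6767686-6780246, plus strand) encodes a BMP that induces bone and acts early in development. It stood at 14.0, 13.4 and 14.5 CPM in Leptin replicates 1, 2 and 3, against 10.4, 10.4 and 10.8 CPM in Control replicates 1, 2 and 3. All Leptin libraries were above all Control libraries, and replicates within each group were close together. The log2 fold change was 0.40 ± 0.14 (SE), and it did not pass (edgeR adjusted p = 0.0860). Over 14 alternative analyses the log2 fold change of BMP2 lay between 0.37 and 0.43 and the adjusted p between 0.0623 and 0.271. BMP4 (ENSG00000125378.16, hg38 chr14:53949736-53958761, minus strand), a ligand close in sequence to BMP2, was near the lower limit of detection, with 13, 16 and 18 counts in Leptin libraries and 22, 19 and 15 counts in Control libraries. The groups overlapped (log2 fold change -0.17 ± 0.39, edgeR adjusted p = 0.818). Another gene on the opposite strand covers 16.3% of the exon bases of BMP4, and read pairs over both were not counted.

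GREM1 (ENSG00000166923.12, hg38 chr15:32718004-32745106, plus strand) encodes gremlin, a secreted protein that binds BMP2 and BMP4 and keeps them from their receptors. It had 0 counts in all 3 Leptin libraries and 3, 0 and 1 counts in Control replicates 1, 2 and 3. Both groups were at or under 3 counts per library, taken as the limit that a count of 0 allows (0.161 to 0.192 CPM before scaling, for counting error only), so no fold change is given and a difference was not detectable at this depth.

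Neither receptor gene passed the test, and in both the groups overlapped. BMPR1A (ENSG00000107779.15, hg38 chr10:86756596-86932825, plus strand), a type I receptor for BMP2 and BMP4, stood at 60.4, 61.4 and 55.4 CPM in Leptin replicates 1, 2 and 3, against 64.7, 62.1 and 56.5 CPM in Control replicates 1, 2 and 3. The ranges overlapped, and the log2 fold change was -0.05 ± 0.11 (edgeR adjusted p = 0.801). BMPR2 (ENSG00000204217.16, hg38 chr2:202376327-202567751, plus strand), the type II receptor specific to BMPs, stood at 127, 179 and 137 CPM in Leptin libraries and 128, 143 and 128 CPM in Control libraries. Leptin replicate 2 alone was above the highest Control library, and the log2 fold change was 0.15 ± 0.14 (edgeR adjusted p = 0.507). Without Leptin replicate 2 the sign turned, to -0.01 (adjusted p = 0.969).

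SMAD6 (ENSG00000137834.15, hg38 chr15:66702236-66782849, plus strand) is an inhibitory SMAD that blocks BMP type I receptors and is itself induced by BMPs. It stood at 31.1, 22.5 and 24.6 CPM in Leptin replicates 1, 2 and 3, against 22.5, 25.2 and 24.5 CPM in Control replicates 1, 2 and 3. Leptin replicate 1 was the highest of the 6 libraries and the others overlapped. Its log2 fold change of 0.12 ± 0.14 did not pass (edgeR adjusted p = 0.640) and was -0.04 without Leptin replicate 1 (adjusted p = 0.847).

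The ID genes were taken as 2 pairs by where their Leptin libraries stood against the Control libraries, ID1 with ID3 and ID2 with ID4. The order among Leptin libraries was the same in all of them, and in SMAD6, with replicate 1 highest and replicate 2 lowest. ID1 and ID3 are shown here with the 250 bases before their annotated start sites (RefSeq, GRCh38.p14), because their levels moved together. The capitals mark GTCT or its reverse complement, the short box that SMAD proteins bind.
ID1: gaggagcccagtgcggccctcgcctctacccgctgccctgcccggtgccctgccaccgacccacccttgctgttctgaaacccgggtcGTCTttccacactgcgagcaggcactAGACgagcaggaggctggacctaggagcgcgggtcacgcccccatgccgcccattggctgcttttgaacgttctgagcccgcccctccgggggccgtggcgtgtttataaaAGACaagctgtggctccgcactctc
ID3: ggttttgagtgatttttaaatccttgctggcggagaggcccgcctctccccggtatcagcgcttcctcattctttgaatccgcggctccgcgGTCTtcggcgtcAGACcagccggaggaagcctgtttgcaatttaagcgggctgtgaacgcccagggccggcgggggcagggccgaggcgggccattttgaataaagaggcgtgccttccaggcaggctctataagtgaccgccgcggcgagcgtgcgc
The ID1 stretch is chr20:31605039-31605288 on the plus strand and the ID3 stretch chr1:23559502-23559751 on the minus strand. ID1 held 3 GTCT boxes and ID3 held 2 in windows of 300 bases, which also take in the first transcribed bases. Over all 35116 promoter windows of this length 84.0% held at least 1. The BMP-responsive core GGCGCC, present in 19.2% of all windows, was in neither, and the core followed after 5 more bases by GTCT (0.103% of windows) was in none of the windows of the 9 genes that had one. The E-box CANNTG was absent from the ID1 and ID3 windows and present once in each of the ID2 and ID4 windows (68.7% of all windows). All motifs were searched on both strands. A match is a description of letters and not a binding site, and these letters were not searched outside the windows.

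ID1 (ENSG00000125968.9, hg38 chr20:31605283-31606515, plus strand) is a classic direct target of the BMP SMADs. It stood at 307, 72.6 and 131 CPM in Leptin replicates 1, 2 and 3, against 316, 302 and 277 CPM in Control replicates 1, 2 and 3. Leptin replicates 2 and 3 were below every Control library, at 24.3% and 44.03% of the Control mean, while Leptin replicate 1 was at 103% of it. The groups averaged 170.25 ± 122 CPM in Leptin libraries and 298 ± 19.9 CPM in Control libraries (SD, n = 3 each). The log2 fold change of -0.81 ± 0.47 did not pass (edgeR adjusted p = 0.318).

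ID3 (ENSG00000117318.9, hg38 chr1:23557926-23559501, minus strand), a close relative of ID1, followed it at a lower level. It stood at 16.2, 2.87 and 6.18 CPM in Leptin replicates 1, 2 and 3, against 16.2, 11.7 and 14.9 CPM in Control replicates 1, 2 and 3. Leptin replicates 2 and 3 were again below every Control library, at 20.1% and 43.3% of the Control mean, and Leptin replicate 1 was among the highest of the 6. The log2 fold change was -0.75 ± 0.53 (edgeR adjusted p = 0.405). With 43 and 104 counts in Leptin replicates 2 and 3, its level there is less precise than that of ID1, with 1086 and 2212 counts.

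ID2 (ENSG00000115738.10, hg38 chr2:8678845-8684461, plus strand) leaned the other way. It stood at 7.73, 4.74 and 6.53 CPM in Leptin replicates 1, 2 and 3, against 5.06, 4.22 and 4.501 CPM in Control replicates 1, 2 and 3. Leptin replicates 1 and 3 were above every Control library and Leptin replicate 2 lay inside the Control range. The log2 fold change of 0.46 ± 0.23 did not pass (edgeR adjusted p = 0.211). Read pairs over both ID2 and the antisense gene ID2-AS1, which share 6.55% of the ID2 exon bases, were not counted.

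ID4 (ENSG00000172201.12, hg38 chr6:19837370-19842197, plus strand), whose product can pair with the other ID proteins and oppose them, was like ID2 highest in Leptin replicates 1 and 3. It stood at 10.1, 5.95 and 9.26 CPM in Leptin replicates 1, 2 and 3, against 6.27, 6.09 and 7.08 CPM in Control replicates 1, 2 and 3. Leptin replicate 2 was the lowest of the 6 libraries, so the groups overlapped. The log2 fold change was 0.38 ± 0.22 (edgeR adjusted p = 0.279).

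The spread of ID1 and ID3 between Leptin libraries was among the widest of all genes. The SD of log2 CPM over the 3 Leptin libraries was 1.05 for ID1 and 1.23 for ID3, beside a median of 0.24 over all tested genes, and 1.79% and 0.937% of tested genes had an SD at least as large. In Control libraries the SDs were 0.10 and 0.24, beside a median of 0.12. BMP2 was at the other end: its SD over Leptin libraries was 0.06, and 94.4% of tested genes had one as large or larger. Without Leptin replicate 1 the log2 fold change of ID1 was -1.56 ± 0.22 (edgeR adjusted p = 0.00081) and that of ID3 was -1.65 ± 0.26 (edgeR adjusted p = 0.000191), in an analysis where 29.6% of all genes passed. Of 7 fibroblast markers tested in it, COL1A1, COL1A2, DCN and LUM passed and were lower, with log2 fold changes between -3.41 (DCN) and -0.58 (COL1A1). COL3A1 (-0.97), PDGFRB (0.94) and THY1 (0.96) did not pass. Of 8 epithelial markers tested in it, KRT7 passed and was higher (1.02 ± 0.12) and KRT19 passed and was lower (-1.40 ± 0.11). The part of these markers in the result was not tested. Without Leptin replicate 2 the log2 fold changes of ID1 and ID3 were -0.45 (adjusted p = 0.462) and -0.35 (0.604). Without Leptin replicate 3 they were -0.65 (0.516) and -0.57 (0.604). The 2 calls thus depend on leaving out 1 of 3 libraries, and what sets Leptin replicate 1 apart was not tested.

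**Figure D2:**
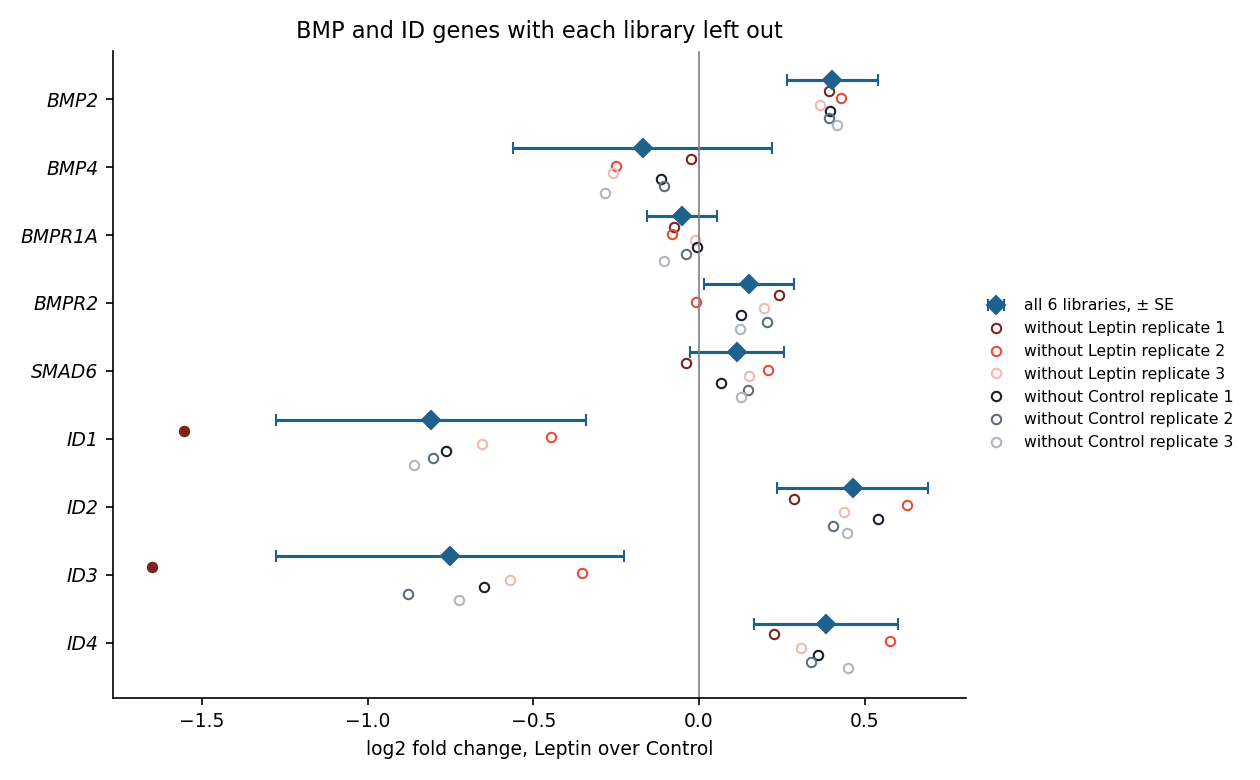
Log2 fold change of each tested gene, Leptin over Control, from all 6 libraries (diamonds, ± SE) and with each library left out (circles; filled where the edgeR adjusted p is under 0.05). The filled circles are ID1 and ID3 without Leptin replicate 1, at -1.56 and -1.65.

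Within a library the proportion between the ID genes of a pair overlapped between the groups. There were 18.9, 25.3 and 21.3 ID1 counts for each ID3 count in Leptin replicates 1, 2 and 3, against 19.5, 25.8 and 18.6 in Control replicates 1, 2 and 3. The 95% counting interval (exact binomial, for counting error only) of Leptin replicate 2, 18.6 to 35.1, was wide, since both genes were at their lowest there. Control libraries differed among themselves beyond counting error: the interval was 22.3 to 30.04 in Control replicate 2, against 17.4 to 21.9 in Control replicate 1 and 16.4 to 21.2 in Control replicate 3. The ratio of ID2 to ID4 counts was 0.766, 0.798 and 0.705 in Leptin replicates 1, 2 and 3, against 0.807, 0.694 and 0.636 in Control replicates 1, 2 and 3. Between the pairs the groups did not overlap. There were 39.7, 15.3 and 20.1 ID1 counts for each ID2 count in Leptin replicates 1, 2 and 3, against 62.5, 71.4 and 61.5 in Control replicates 1, 2 and 3. The ratio of ID3 to ID4 was 1.61, 0.483 and 0.667 in Leptin replicates 1, 2 and 3, against 2.59, 1.92 and 2.10 in Control replicates 1, 2 and 3. All 3 Leptin libraries, replicate 1 included, lay below all 3 Control libraries in both of these ratios. The pairs were themselves formed by where Leptin libraries stood against Control libraries. That choice favoured overlap within a pair and separation between the pairs. The ratios were chosen after the values were seen and no test is given for them. The share of other gene pairs whose ratios separate the groups was not computed. For single genes, a different measure, the groups did not overlap in 32.2% of those tested.

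**Figure D3:**
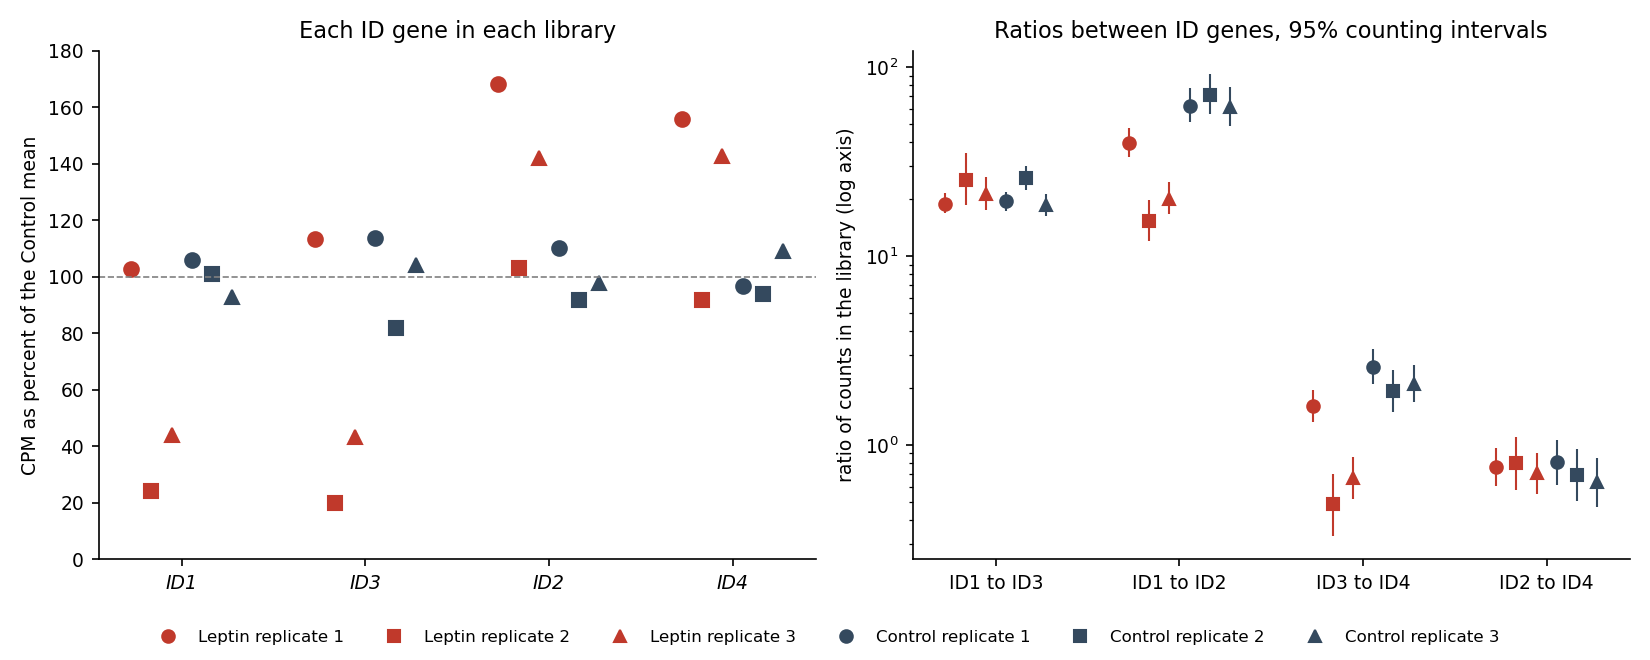
Left, CPM of each ID gene in each library as percent of the Control mean (dashed line at 100). Right, ratios of counts between ID genes within each library on a log axis, with 95% counting intervals. ID1 to ID3 and ID2 to ID4 overlap between the groups, and ID1 to ID2 and ID3 to ID4 are lower in all 3 Leptin libraries.

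Per length, ID1 was by far the most abundant of the 10 genes. In TPM, with the length of all annotated exons of a gene as divisor, ID1 averaged 549.5 ± 402 TPM in Leptin libraries and 989.7 ± 58.4 TPM in Control libraries (SD, n = 3 each). The ID genes together reached 1072, 261 and 442 TPM in Leptin replicates 1, 2 and 3, against 1104, 1043 and 985 TPM in Control replicates 1, 2 and 3. ID1 made up 93.6%, 91.3% and 91.8% of these sums in the Leptin libraries and 94.6%, 95.6% and 94.2% in the Control libraries. ID2 made up 1.31%, 3.33% and 2.54% in the Leptin libraries and 0.843%, 0.746% and 0.853% in the Control libraries.

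In Leptin libraries the order of mean levels after ID1 was BMPR2, BMPR1A, ID3, BMP2, SMAD6, ID2, ID4, BMP4 and GREM1. In Control libraries it was BMPR2, ID3, BMPR1A, BMP2, SMAD6, ID2, ID4, BMP4 and GREM1. BMPR2 averaged 46.9 ± 9.54 TPM in Leptin libraries and 43.5 ± 2.61 TPM in Control libraries. ID3 averaged 22.4 ± 18.9 TPM in Leptin libraries and 39.0 ± 6.44 TPM in Control libraries, and stood below BMPR1A in Leptin libraries and above it in Control libraries. Neighbours whose library ranges overlapped were BMPR1A with ID3, ID3 with BMP2, SMAD6 with ID2 and ID2 with ID4 in Leptin libraries, and BMPR2 with ID3 and BMP2 with SMAD6 in Control libraries. BMP2 averaged 15.6 ± 0.309 TPM in Leptin libraries and 12.2 ± 0.345 TPM in Control libraries, and BMP4 1.23 ± 0.224 TPM in Leptin libraries and 1.43 ± 0.196 TPM in Control libraries.

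The receptor genes BMPR1A and BMPR2 had the highest levels per length of the 4 type I and 3 type II receptor genes examined, a list of the BMP branch that leaves out other receptors of the TGF-beta family. Among type I receptors, BMPR1A averaged 23.3 ± 2.01 TPM in Leptin libraries and 24.8 ± 1.51 TPM in Control libraries, and ACVR1, which also transmits BMP signals, 13.2 ± 1.72 TPM in Leptin libraries and 13.6 ± 0.946 TPM in Control libraries. BMPR1B averaged 4.23 TPM in Leptin libraries and 4.05 TPM in Control libraries, and ACVRL1, the endothelial type I receptor, 1.17 TPM in Leptin libraries and 1.98 TPM in Control libraries. The type II receptors ACVR2A and ACVR2B, shared with activins, averaged 5.55 and 3.49 TPM in Leptin libraries and 5.41 and 2.49 TPM in Control libraries. None of the 10 tested receptor and co-receptor genes changed in edgeR's test, DESeq2 or limma-voom, which called 9.81%, 6.5% and 8.39% of all genes. ACVR2B, ENG and TGFBR3 (3 of 10) had an unadjusted p under 0.05 in edgeR's test, beside 27.6% of all tested genes.

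Beyond the members, 57 other genes of the pathway were examined by role, of which 37 were tested and 6 had no count in any library. With leptin 4 rose and 1 fell, against a background of 9.81% of all genes called. The median log2 fold change of the 37 was 0.22, beside 0.01 over all tested genes. In classes of all tested genes by GC content the median ran from -0.13 in the poorest class to 0.30 in the richest. The part of GC content in the pathway median was not tested. The groups did not overlap for 12 of the 37, where 32.2% of all genes did not. Of 5 other ligand genes tested, BMP8B rose and GDF6, which encodes a BMP-type ligand of joint and eye development, fell. BMP8B stood at 7.49, 8.15 and 7.60 CPM in Leptin replicates 1, 2 and 3, against 2.32, 3.17 and 3.18 CPM in Control replicates 1, 2 and 3. Its log2 fold change of 1.43 ± 0.21 (edgeR adjusted p = 0.00475) passed in all 14 alternative analyses. BMP8B and BMP8A are near-identical copies, and reads that fit both were not counted, so the split between them is uncertain; for BMP8A the estimate was 0.69 ± 0.22 (edgeR adjusted p = 0.0709). GDF6 stood at 20.5, 22.9 and 16.6 CPM in Leptin replicates 1, 2 and 3, against 29.4, 31.4 and 36.5 CPM in Control replicates 1, 2 and 3. All Leptin libraries were below all Control libraries (log2 fold change -0.70 ± 0.15, edgeR adjusted p = 0.0169), and the call was lost without Leptin replicate 3 (adjusted p = 0.0707) and without Control replicates 1, 2 and 3 (0.0736, 0.0704 and 0.111).

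Of 8 tested genes of secreted antagonists and modulators, 3 rose and 0 fell in edgeR's test, where 5.71% of all tested genes rose and 4.09% fell. DESeq2 called 4 of the 8, with FSTL3 added, where it called 6.5% of 32825 genes in either direction. With limma-voom 2 were called, CHRD and KCP, where it called 8.39% of all tested genes. CHRD encodes chordin, which binds BMPs outside the cell. It stood at 2.71, 4.41 and 3.44 CPM in Leptin replicates 1, 2 and 3, against 1.58, 1.06 and 1.5003 CPM in Control replicates 1, 2 and 3 (log2 fold change 1.34 ± 0.31, edgeR adjusted p = 0.0250). KCP, whose product enhances BMP signalling in mouse kidney, stood at 1.10, 1.67 and 1.66 CPM in Leptin libraries and 0.316, 0.248 and 0.3001 CPM in Control libraries (log2 fold change 2.32 ± 0.46, edgeR adjusted p = 0.0141). KCP counts were few, 19, 25 and 28 in Leptin libraries and 6, 4 and 5 in Control libraries, so the size of its change is imprecise. Other genes share 17.2% of the KCP exon bases. NBL1 encodes the BMP antagonist DAN. It stood at 270.2, 490.4 and 511 CPM in Leptin replicates 1, 2 and 3, against 242, 269 and 249 CPM in Control replicates 1, 2 and 3. Leptin replicate 1 was just above the highest Control library (log2 fold change 0.74 ± 0.20, edgeR adjusted p = 0.0427). Reads of NBL1 overlap those of the read-through gene MICOS10-NBL1 and of MICOS10 over 18.6% of its exon bases. CHRD passed in 1 of the 6 analyses that left out a library, the one without Leptin replicate 1, with adjusted p up to 0.108 in the others. NBL1 also passed only without Leptin replicate 1, with adjusted p up to 0.188 in the others, and missed the threshold in limma-voom (0.0627). KCP passed without Leptin replicate 1 or 2, with adjusted p up to 0.0882 in the others. With the trend of counts with GC content removed, the log2 fold change of NBL1 was 0.30 ± 0.15 (edgeR adjusted p = 0.246), which no longer passed. That of CHRD was 0.94 ± 0.31 (edgeR adjusted p = 0.0971) and did not pass either, and that of KCP was 1.82 ± 0.44 (edgeR adjusted p = 0.0393) and passed.

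Of 9 tested SMAD genes and regulators other than SMAD6, 0 changed in edgeR's test or limma-voom and 2, SMAD9 and BAMBI, in DESeq2. The share of all genes called was 9.81% by edgeR, 8.39% by limma-voom and 6.5% by DESeq2. Of the 9, 4 had an unadjusted p under 0.05 in edgeR's test, beside 27.6% of all tested genes. The receptor-activated SMAD1 and SMAD5 had log2 fold changes of -0.18 ± 0.15 and 0.05 ± 0.12 (edgeR adjusted p = 0.495 and 0.811). SMAD9 and BAMBI came nearest to the threshold and were named after their values were seen. SMAD9, the third BMP SMAD, stood at 9.97, 9.69 and 8.43 CPM in Leptin replicates 1, 2 and 3, against 5.59, 4.97 and 7.14 CPM in Control replicates 1, 2 and 3 (log2 fold change 0.67 ± 0.19, edgeR adjusted p = 0.0510). BAMBI, which encodes a pseudoreceptor that blocks BMP and TGF-beta receptors, stood at 14.5, 32.6 and 41.3 CPM in Leptin replicates 1, 2 and 3, against 13.3, 14.9 and 12.9 CPM in Control replicates 1, 2 and 3 (log2 fold change 1.10 ± 0.32, edgeR adjusted p = 0.0587). Leptin replicate 1 lay inside the Control range of BAMBI, as for ID1, and Leptin replicates 2 and 3 were above it. Each passed in 4 of 14 alternative analyses, DESeq2 and the analysis without Leptin replicate 1 among them. Of 7 tested BMP target genes other than the members, BAMBI, SMAD7 and SMAD9 again among them, and of the E protein genes TCF3, TCF4 and TCF12, whose products ID proteins bind, 0 changed in edgeR's test or limma-voom, and DESeq2 again called SMAD9 and BAMBI. At an unadjusted p under 0.05 there were 4 of the 7 target genes and 0 of the 3 E protein genes, beside 27.6% of all tested genes. TCF3 had the largest log2 fold change of the 3 E protein genes, 0.30 ± 0.16 (edgeR adjusted p = 0.237).

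**Figure D4:**
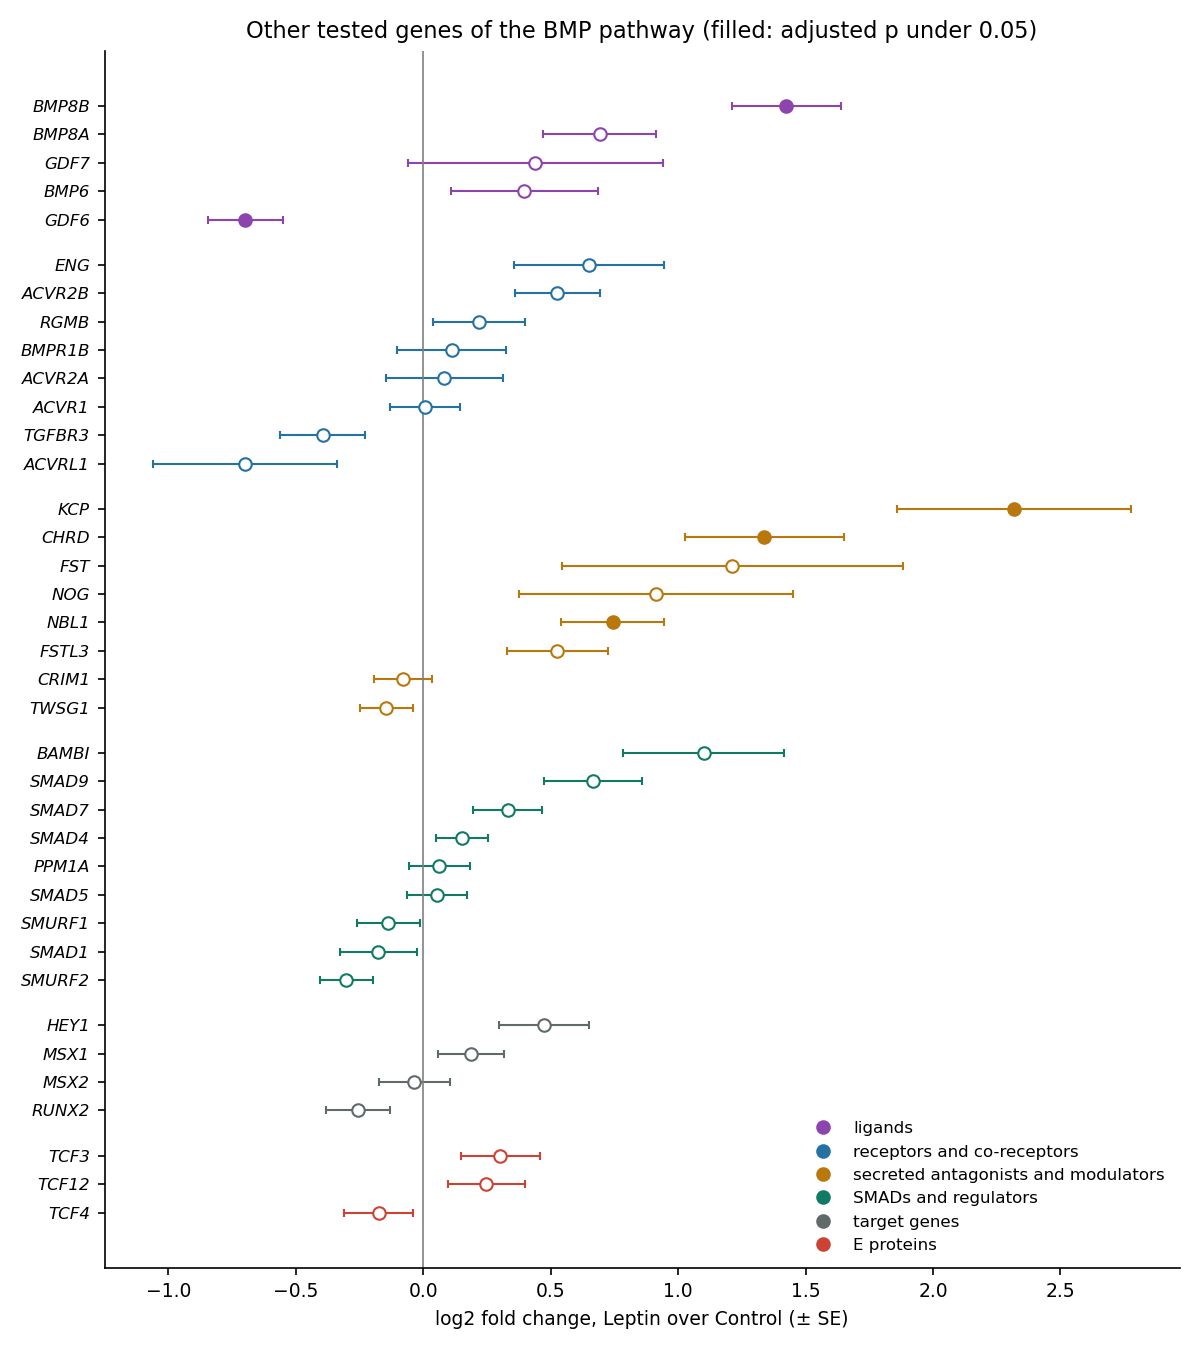
Log2 fold change, Leptin over Control, with SE for the 37 tested pathway genes other than the 10, grouped by role; filled points passed an edgeR adjusted p under 0.05. BMP8B, KCP, CHRD and NBL1 are the filled points above 0 and GDF6 the filled point below 0.

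Among 9428 protein-coding genes with a mean of at least 10 CPM, the 3 with the pattern over 6 libraries closest to each ID gene were found by the root mean square difference of centred log2 CPM. For ID1 they were NFKBIZ, TM4SF1 and S100A4, at 0.12, 0.13 and 0.17. NFKBIZ stood at 84.1, 23.7 and 35.2 CPM in Leptin replicates 1, 2 and 3, against 99.0, 92.8 and 93.1 CPM in Control replicates 1, 2 and 3. For ID3 they were TM4SF1, NFKBIZ and EDN1, at 0.15, 0.23 and 0.26, so TM4SF1 and NFKBIZ were near both. For ID2 they were CBY1, GLRX and TMEM187 (0.09, 0.10 and 0.11), and for ID4 BORCS6, S100A5 and CD70 (0.10 each). None of these 10 genes passed edgeR's test (adjusted p between 0.0937 and 0.385), where 9.81% of all tested genes did. They were chosen for patterns like those of ID genes that did not pass, so this count is no separate result.

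Fold changes over all tested genes also moved with GC content, so the GC content of the ID genes is given here. With tested genes cut into 5 equal classes by GC content, ID1 (58.6% GC in its longest transcript) lay in class 5, the richest in GC, where the median log2 fold change was 0.30, 17.6% of genes rose and 0.59% fell. ID2 and ID3 lay in class 4, with a median of 0.08, and ID4 in class 3, with a median of -0.03. After removal of each library's GC trend the log2 fold change of ID1 was -0.98 (edgeR adjusted p = 0.290) and that of ID3 -0.89 (adjusted p = 0.363). Those of ID2 and ID4 were 0.42 (edgeR adjusted p = 0.286) and 0.45 (adjusted p = 0.239). Of the 9 genes 0 passed, where 5.53% of all tested genes did.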

How the data were processed

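Total RNA of 3 Leptin and 3 Control libraries went into directional libraries read from both ends, per the labels' protocols. The deposited values are raw counts of read pairs per gene. Per the file headers, the authors counted over exons of GENCODE release 44 with featureCounts 2.0.1, without strand, multi-mapping or multiple-overlap options. HISAT2 2.0.5, featureCounts 1.5.0-p3, DESeq2 and the build hg38 appear in the submitters' processing notes. Read pairs over exons of 2 genes, and reads that fit copies of a gene, were thus left out.

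Groups were compared with edgeR 4.0.16 in R 4.3.3: filterByExpr (minimum count 10, minimum total 15), TMM factors, robust quasi-likelihood dispersions, no replicate term, Benjamini-Hochberg adjustment over all 15685 tested genes and a threshold of 0.05. CPM divide by totals times TMM factors, and each SE was derived from the F statistic. Log2 CPM used a prior count of 2. No pair of libraries of a group agreed within sampling noise (chi-square divided by genes, 5.30 to 45.7). Alternatives were DESeq2 1.42.0, limma-voom (limma 3.58.1), other scalings, filters and a threshold of 0.01, subtraction of a GC trend per library (lowess, span 0.3; GC of the longest GENCODE 29 transcript, known for 97.2% of tested genes), replicate number as a block, and 1 library left out at a time. Promoter windows are RefSeq's and were found for 9 of the 10 genes, BMP2 being the other. Intervals (scipy 1.17.1) cover counting error only.

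The members and gene lists were chosen with earlier results of these data known. Named genes are the members, up to 4 called genes per pathway list, the 3 genes most like each ID gene, and markers of the cell type check. Other uncalled pathway genes given with values were chosen after their values were seen. Columns of other per-sample values numbered 0.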

Additional observations from a re-analysis of the deposited data

How the results depend on the processing

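The 14 other analyses at a threshold of 0.05 put 0 members past it, except the one without Leptin replicate 1 (2 lower, 0 higher). They tested 9 members, or 10 with DESeq2 and with no filter on low counts. Leaving out each library gave 0 to 2 members changed (0 to 2 lower, 0 higher), 1 to 17 other pathway genes (1 to 14 higher, 0 to 3 lower) and 115 to 4761 genes in all (55 to 2583 higher, 60 to 2178 lower). With all libraries, 5 other pathway genes changed (4 higher, 1 lower) and 1538 genes in all (896 higher, 642 lower). DESeq2 and the analysis with no filter on low counts each gave 8 other pathway genes (7 higher). These were out of 51 tested there, where the main analysis tested 37. With DESeq2 2133 of 32825 genes passed in all. With no filter 2437 genes passed in all (1478 higher). At an adjusted p under 0.01 there were 274 genes (148 higher, 126 lower), with 1 other pathway gene higher and 0 lower. With the GC trend removed 868 genes passed (426 higher, 442 lower). The cause of these shifts was not tested beyond what the settings themselves change. Signs turned for SMAD6 (-0.0637 with the GC trend removed, and -0.0388 to 0.2099 with 1 library left out, negative without Leptin replicate 1), BMPR1A (0.0774 with the GC trend removed) and BMPR2 (-0.0094 to 0.2411 with 1 library left out, negative without Leptin replicate 2), none of them past the threshold.

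The replicate numbers gave no sign of pairing: deviations of same-numbered libraries correlated at -0.05, 0.02 and -0.11, and not every library correlated best with its own number. With 3 libraries per group these correlations cannot exclude pairing, and the labels state none. With the replicate block 1303 genes passed (768 higher, 535 lower), with 0 members and 6 other pathway genes (5 higher, 1 lower). Of the members ID3 came nearest there (log2 fold change -1.01 ± 0.33, edgeR adjusted p = 0.0932), and BAMBI passed (edgeR adjusted p = 0.0412). Depth limits BMP4, with 13 to 22 counts per library, and GREM1, with 0 to 3. Among the other pathway genes it also limits KCP, with 4 to 28.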

Other observations

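Without Leptin replicate 1, 17 of 38 tested pathway genes other than the members passed edgeR's test (44.7%), beside 29.6% of all genes. Of the inhibitors and modulators among them, SMURF2, whose product marks SMADs for degradation, had a negative log2 fold change (-0.34 ± 0.11, adjusted p = 0.0236). Positive log2 fold changes were 2.49 ± 0.52 for KCP (adjusted p = 0.00186), 1.49 ± 0.32 for CHRD (0.00225), 1.42 ± 0.14 for BAMBI (adjusted p = 1.8e-06), 0.97 ± 0.09 for NBL1 (1.78e-06), 0.75 ± 0.10 for the activin-binding protein gene FSTL3 (5.88e-05), 1.31 ± 0.44 for NOG, which encodes noggin (0.0323), and 0.41 ± 0.12 for the inhibitory SMAD7 (0.0185). FSTL3 stood at 276, 492 and 492 CPM in Leptin replicates 1, 2 and 3, against 254, 315 and 305 CPM in Control replicates 1, 2 and 3. KCP, NBL1, CHRD, FSTL3, NOG and SMAD7 have 58.7% to 67.1% GC in their longest transcript, BAMBI 51.0% and SMURF2 39.3%. In the class of tested genes richest in GC (at least 58.06%), 17.6% rose and 0.59% fell with all 6 libraries. The part of GC content in the values without Leptin replicate 1 was not tested. The target gene HEY1 had a log2 fold change of 0.64 ± 0.14 (0.0024) and the osteoblast regulator RUNX2 one of -0.40 ± 0.11 (0.00959). Among E protein genes the values were 0.47 ± 0.09 for TCF3 (0.00128) and 0.38 ± 0.11 for TCF12 (0.0194). Of the 17, BMP8B, GDF6, CHRD, KCP and NBL1 also passed edgeR's test with all 6 libraries, and the others named here were chosen after their values were seen. The rest of the 17 were BMP8A, ACVR2B and SMAD9, with log2 fold changes of 0.67, 0.62 and 0.61.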
